A study of Rattus norvegicus with 4 samples.

Results

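Ankrd1, Ankrd2, Mustn1, Csrp3, Xirp1, Tnfrsf12a, Fhl1, Flnc and Rrad, 9 genes known to respond to stretch or load in striated muscle, were followed in rat soleus that had been injured, overloaded, both or neither. They were chosen by name and, like the gene lists further down, with earlier results of these data known. Counts set beside the share over all genes are therefore descriptions. The probes of the 9 genes were found through the RefSeq accession that the scanner files give for each probe. Of the 9 genes, 8 were matched, through 10 of 30367 probes and 35 of 58717 probe spots. Xirp1, which encodes the actin-binding repeat protein Xin, had no probe matched by accession and was not analysed here. The other 8 stood among 26633 genes and transcripts on the array, and all 10 of their probes were well above background on every array, so none was lost to the filter on dim probes.

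The soleus is a postural calf muscle rich in slow fibres. It came from male rats, and the labels give no strain. Each of the 4 groups was 1 pool of equal RNA amounts from 6 muscles, hybridised to 1 one-colour Agilent array, so n = 1 throughout and nothing here was replicated. Normal soleus (16 weeks of age) had neither injury nor overload. Regenerated soleus (16 weeks) was collected 8 weeks after a CTX injection, an abbreviation that the labels do not expand, although in this field it usually means cardiotoxin, a venom toxin that kills fibres and is followed by regeneration. Overloaded soleus (18 weeks), which the labels call hypertrophied, was loaded by a method they do not name. Regenerated overloaded soleus (18 weeks) had been injured and then overloaded, at an interval the labels do not give. Sample names end in R for the uninjured groups and in L for the injured groups, so injury cannot be told apart from whatever these letters stand for. Nor can overload be told apart from age or from the row of the slide. The labels and headers place both overloaded groups at the older age and in the second row. The slow muscle markers Myh7, Myl2, Myl3, Tnni1, Tnnt1, Tnnc1, Tpm3 and Atp2a2 were above background on all 4 arrays, 8 of 8, as were 4 of 4 general markers of skeletal muscle.

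Muscle fibres register mechanical load partly at the Z-disc, the plate that anchors actin filaments and the ends of titin, and at the costamere that ties the Z-disc to the membrane. Ankrd1 (CARP) and Ankrd2 (ARPP) are ankyrin repeat proteins that bind the elastic part of titin and also enter the nucleus. Csrp3 (muscle LIM protein), Fhl1 (a protein of LIM domains) and Flnc (filamin C, an actin cross-linker) belong to the Z-disc or its surroundings. Mustn1 is a small nuclear protein of muscle, tendon and cartilage. Tnfrsf12a (Fn14) is the membrane receptor of the cytokine TWEAK, and Rrad is a small GTPase that restrains L-type calcium channels.

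Promoter sequences were available for 6 of the 9 genes (Ankrd2, Mustn1, Xirp1, Tnfrsf12a, Fhl1 and Flnc), from RefSeq on assembly GRCr8. The 250 bases before the annotated start were searched on both strands for the TEAD site MCAT (CATTCC), the AP-1 site (TGANTCA), the CArG box of serum response factor, the MEF2 site, the NF-kB site, TATAAA and the E-box (CANNTG), the site of MyoD and related factors. Windows are shown for Mustn1 (chr16:6079105-6079354, plus strand) and Tnfrsf12a (chr10:13213649-13213898, minus strand), which had the largest differences among genes with a window, and for Flnc (chr4:58999297-58999546, plus strand) and the first start of Fhl1 (chrX:139638246-139638495, plus strand), which held a match to MCAT and to the CArG box. Capitals mark the matches other than E-boxes, which are too common to mark (65.5% of windows), and the sequences are written 5′ to 3′ along the gene.
Mustn1: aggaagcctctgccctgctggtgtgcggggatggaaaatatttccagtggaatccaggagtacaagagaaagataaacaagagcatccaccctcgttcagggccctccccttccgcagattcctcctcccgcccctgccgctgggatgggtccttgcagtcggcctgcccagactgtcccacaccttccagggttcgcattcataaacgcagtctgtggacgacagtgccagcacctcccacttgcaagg
Tnfrsf12a: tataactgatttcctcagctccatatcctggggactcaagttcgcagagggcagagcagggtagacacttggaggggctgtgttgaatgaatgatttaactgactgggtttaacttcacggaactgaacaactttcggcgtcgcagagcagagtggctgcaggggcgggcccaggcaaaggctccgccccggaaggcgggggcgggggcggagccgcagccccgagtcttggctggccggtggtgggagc
Flnc: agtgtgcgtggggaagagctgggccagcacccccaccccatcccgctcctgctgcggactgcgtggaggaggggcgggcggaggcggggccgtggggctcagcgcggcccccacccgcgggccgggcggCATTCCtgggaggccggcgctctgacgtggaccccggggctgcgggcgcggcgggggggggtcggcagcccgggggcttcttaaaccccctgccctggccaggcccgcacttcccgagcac
Fhl1: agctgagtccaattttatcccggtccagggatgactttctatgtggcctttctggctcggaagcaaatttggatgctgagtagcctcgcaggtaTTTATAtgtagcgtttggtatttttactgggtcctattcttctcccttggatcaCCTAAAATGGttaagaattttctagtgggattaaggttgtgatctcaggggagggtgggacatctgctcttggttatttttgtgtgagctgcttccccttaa
The Flnc window held CATTCC 121 bases before the start, a match found in 12.1% of 33360 promoter windows of this length. The Fhl1 window held CCTAAAATGG, a CArG box that 1.5% of windows have, and TATAAA on the minus strand, which 12.9% of windows have on either strand. The windows of Mustn1 and Tnfrsf12a held none of the motifs except an E-box, CACTTG in both, and the shown Fhl1 window held the E-box CATCTG. Xirp1 was the gene with an AP-1 match (6.35% of windows) and a MEF2 match (2.97% of windows), and no NF-kB match (6.34% of windows) was found in any of the 9 windows of the 6 genes. These matches describe letters, and nothing was measured at these positions.

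The values below are processed signals in intensity units, scaled so that the 75th percentile of the probe spots is the same on every array, and averaged as logarithms over the spots of a probe. They compare 1 gene between arrays and do not compare genes with one another, because probes differ in brightness. The error given with a log2 difference is a technical standard error (SE) from repeated spots, 2 or 10 for the probe used for each gene, and it holds no variation between rats. A difference is said to exceed spot noise where it is over 1.96 times that SE, a 95% range. A gene is counted as higher or lower where 2 arrays differ 2-fold or more. The share of spots well above background ran from 60.2% on the normal array to 70.4% on the overloaded array, and the spots of a probe differed by an SD of 0.10 to 0.13 on the log2 scale. The 4 comparisons share arrays, so each is given by its own values.

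Ankrd1 and Mustn1 stood out from the other 6 genes through their high signal on 1 array, that of regenerated overloaded muscle. Mustn1 was also clearly lowest in regenerated muscle, where Ankrd1 did not differ from normal muscle beyond spot noise. Ankrd1 signal was 596 in normal, 546 in regenerated, 682 in overloaded and 1518 in regenerated overloaded muscle. The 2 Ankrd1 spots on the last array (1437 and 1602) lay far above every spot of the other arrays, the highest of which read 710. Mustn1 signal was 14853.5 in normal, 10213 in regenerated, 16377 in overloaded and 31682 in regenerated overloaded muscle. The 10 spots of this Mustn1 probe kept the 4 arrays apart without overlap except between normal and overloaded muscle, whose ranges overlapped (14074 to 15439 and 15319 to 16951). A second Mustn1 probe, with 2 spots, gave 4964, 3329, 5639 and 10739.6 in the same order of groups.

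**Figure D1:**
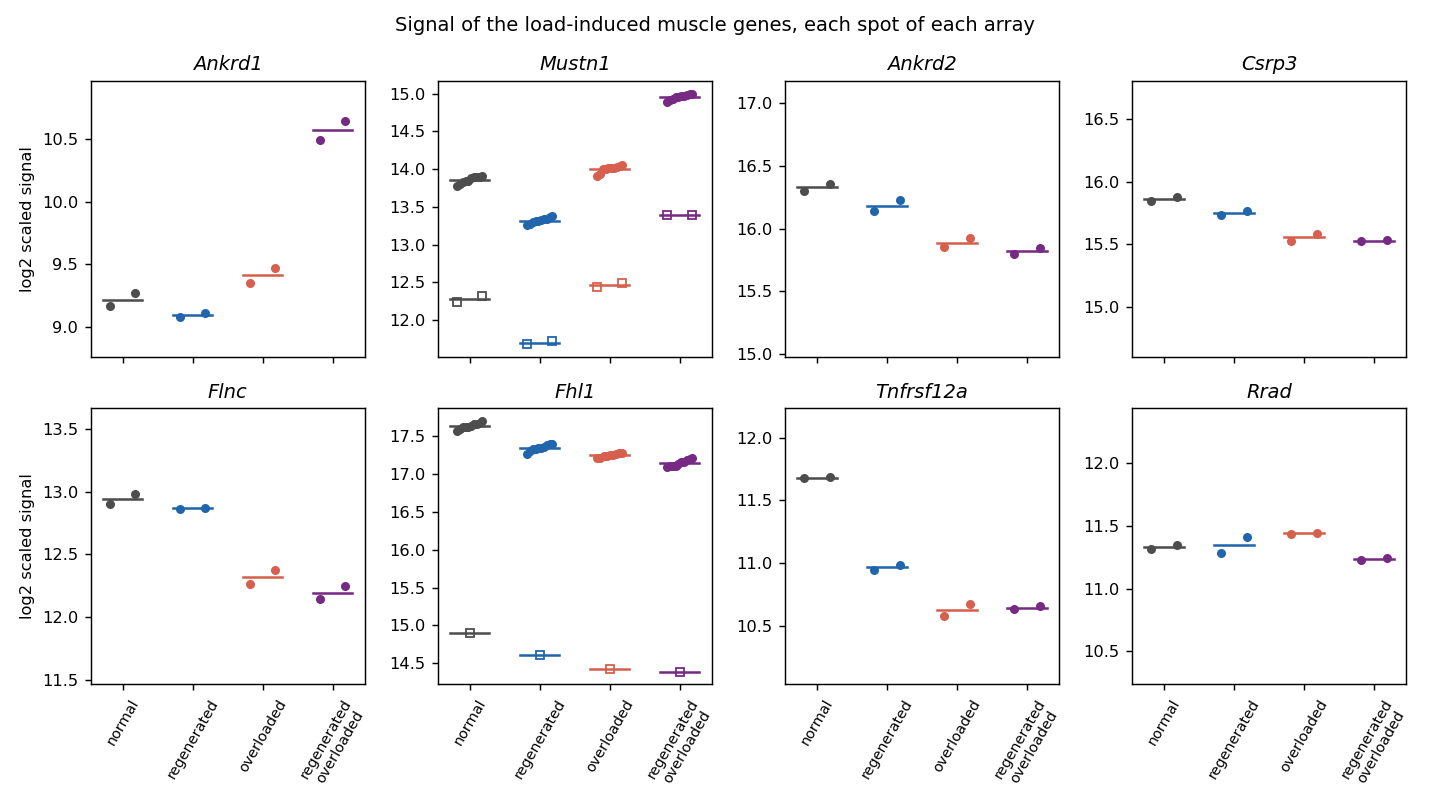
Log2 scaled signal (vertical axis) of the 8 matched genes on the 4 arrays (horizontal axis), 1 point per spot. A bar marks the mean of a probe's spots. Filled circles are the probe used and open squares a second probe of Mustn1 or Fhl1. Ankrd1 and Mustn1 are highest in regenerated overloaded muscle. With the scaling drawn, Ankrd2, Csrp3, Flnc, Fhl1 and Tnfrsf12a are highest in normal muscle.

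Comparison of regenerated with normal muscle asks what remained of the response 8 weeks after the injury. None of the 8 genes differed 2-fold or more, against 1.93% of the 16911 genes and transcripts measured in this comparison. With a limit of 1.5-fold 1 did, Tnfrsf12a, against 8.1%. Tnfrsf12a was 1.64-fold lower in regenerated muscle (log2 difference -0.72, technical SE 0.056) and Mustn1 1.45-fold lower (-0.54, technical SE 0.025). The second Mustn1 probe gave -0.58. Fhl1 was 1.22-fold lower (-0.29, technical SE 0.024). The remaining 5 genes lay between -0.15 (Ankrd2) and 0.01 (Rrad). Among them Ankrd1 at -0.12, Flnc at -0.08 and Rrad did not exceed spot noise. The median of the 8 genes was -0.14, and that of all genes measured was -0.06. The small differences of Ankrd1, Ankrd2, Csrp3 and Flnc had no settled sign, since at least 1 of the scalings (quantile, cyclic loess or the deposited series table) put each of them above 0.

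Comparison of overloaded with normal muscle addresses load on muscle that had not been injured. Of the 8 genes, 1 differed 2-fold or more, against 3.2% of 17308 genes and transcripts. It was Tnfrsf12a, 2.08-fold lower in overloaded muscle (-1.06, technical SE 0.057), and its difference ended under 2-fold with quantile normalization (-0.95), cyclic loess (-0.92) and the deposited series table (-0.88). With a limit of 1.5-fold Tnfrsf12a and Flnc were past it, 2 of 8 against 11.2%. Ankrd1 was 1.14-fold higher (0.19, technical SE 0.067) and Mustn1 was slightly higher (0.14, technical SE 0.024). Both exceeded spot noise and neither came near 2-fold.

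Flnc, Ankrd2, Fhl1 and Csrp3 were lower in overloaded than in normal muscle, unlike Ankrd1. Flnc was 1.54-fold lower (-0.62, technical SE 0.053), Ankrd2 1.36-fold (-0.44, technical SE 0.053), Fhl1 1.31-fold (-0.39, technical SE 0.024) and Csrp3 1.24-fold (-0.31, technical SE 0.053). Under cyclic loess the differences were -0.43 for Flnc, -0.12 for Ankrd2, -0.03 for Fhl1 and 0.0008 for Csrp3. Rrad, at 0.11, did not exceed spot noise. The median of the 8 genes was -0.35 and that of all genes -0.05, whereas under cyclic loess both were near 0 (-0.013 and 0).

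In bulk RNA, fewer fibres and less RNA per fibre cannot be told apart, and general markers of skeletal muscle were lower as well. The 8 slow fibre markers lay between -0.41 (Atp2a2, signal 180577 in normal muscle) and -0.09 (Tpm3, the dimmest of them at 4526). Atp2a2 was the next dimmest, and Tnnt1, the brightest at 402876, was at -0.29. Quantile normalization put the median of the 8 matched genes of the set at -0.05, where the reported scaling gave -0.35. The part of probe brightness in these differences was not tested. Ckm, Acta1, Mb and Des, 4 of 4 above background on all arrays, differed by -0.44, -0.38, -0.30 and -0.36 between overloaded and normal muscle, and their summed signal was 855815 in normal, 658717 in regenerated, 667356 in overloaded and 602629 on the remaining array. With the arrays aligned on these 4 genes, an alternative added after seeing the data, the overload differences became -0.25 for Flnc, -0.07 for Ankrd2, -0.02 for Fhl1, 0.06 for Csrp3 and -0.68 for Tnfrsf12a, while Ankrd1 stood at 0.56 and Mustn1 at 0.51.

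Comparison of regenerated overloaded with regenerated muscle addresses load on muscle that had been injured before. Of the 8 genes, 2 were 2-fold or more higher and none was lower, against 1.55% higher and 0.447% lower among 17208 genes and transcripts (1.99% either way). Mustn1 was 3.10-fold higher (1.63, technical SE 0.024), and its second probe gave 3.23-fold. Ankrd1 was 2.78-fold higher (1.47, technical SE 0.062). Over the 11 alternatives planned for single values, Mustn1 stayed between 1.63 and 1.71 and Ankrd1 between 1.37 and 1.52. The other ankyrin repeat gene, Ankrd2, differed in the opposite direction, 1.29-fold lower (-0.36, technical SE 0.052).

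Flnc was 1.59-fold lower (-0.67, technical SE 0.053), close to its overload difference in uninjured muscle. Tnfrsf12a was 1.25-fold lower (-0.32, technical SE 0.057), Csrp3 1.16-fold (-0.22, technical SE 0.052) and Fhl1 1.15-fold (-0.20, technical SE 0.023). Rrad, at -0.11, was the smallest of the 8. All 8 differences exceeded spot noise. The median of the 8 genes was -0.21 and that of all genes -0.03.

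**Figure D2:**
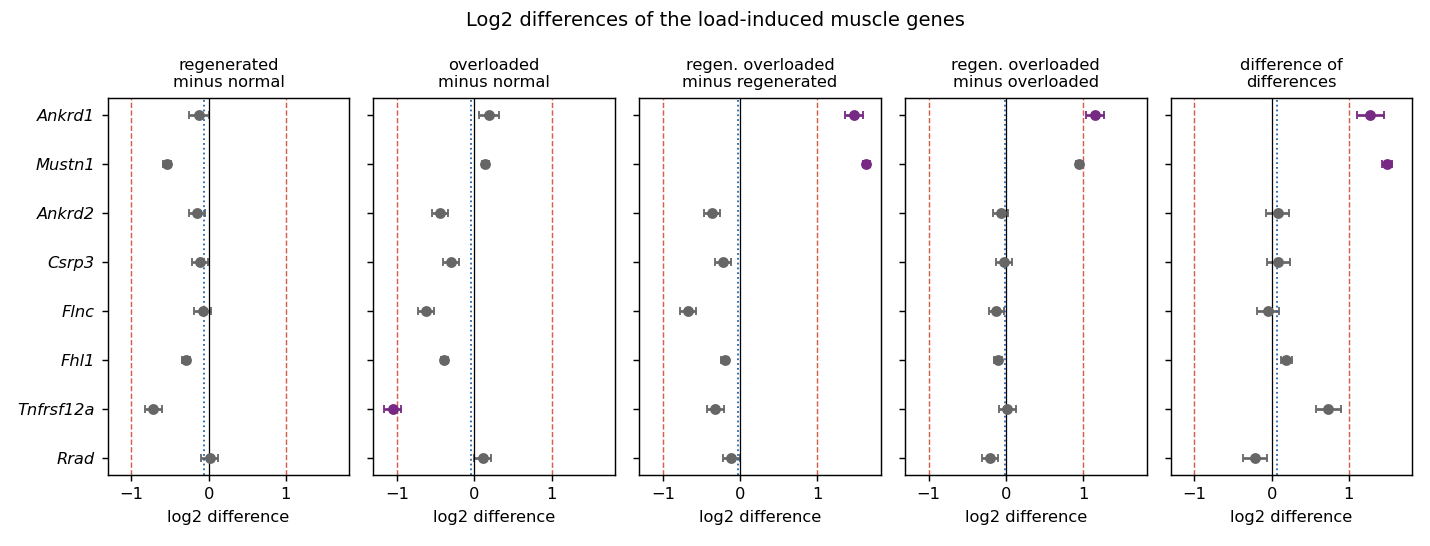
Log2 differences (horizontal axis) of the 8 genes in the 4 comparisons and in the difference of differences, with bars of 1.96 technical SE from repeated spots; purple points are 2-fold or more, dashed red lines mark 2-fold, and the dotted blue line is the median of all genes measured. Ankrd1 and Mustn1 are past 2-fold in regenerated overloaded against regenerated muscle (1.47 and 1.63) and stay under 0.2 in overloaded against normal muscle.

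Set against overloaded muscle without injury, regenerated overloaded muscle had 2.23-fold more Ankrd1 signal (1.16, technical SE 0.060), the only one of the 8 genes past 2-fold, against 1.71% of 17493 genes and transcripts. Mustn1 was 1.93-fold higher (0.95, technical SE 0.023), just under the limit, and its second probe gave 1.90-fold. At 1.5-fold both genes were past the limit, 2 of 8 against 5.38%. Rrad was 1.15-fold lower (-0.21, technical SE 0.055), Flnc 1.09-fold lower (-0.12, technical SE 0.052) and Fhl1 1.07-fold lower (-0.10, technical SE 0.024). Ankrd2 (-0.07), Csrp3 (-0.03) and Tnfrsf12a (0.02) did not exceed spot noise. The median was -0.05 for the 8 genes and -0.02 for all genes measured.

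The difference of differences is the overload difference in regenerated muscle minus that in normal muscle, and draws on all 4 arrays. It was 1.49 for Mustn1 (technical SE 0.034), 1.51 on its second probe, and 1.28 for Ankrd1 (technical SE 0.091), the 2 of 8 genes past 2-fold, against 0.763% of 14417 genes and transcripts above background on all arrays. Tnfrsf12a followed at 0.74 (technical SE 0.080), without reaching 2-fold: its signal was 3283 in normal, 1997 in regenerated, 1580.05 in overloaded and 1600.1 in regenerated overloaded muscle, so that normal muscle stood above the other 3 and both overloaded groups were alike within spot noise. Rrad was at -0.22 (technical SE 0.079) and Fhl1 at 0.19 (technical SE 0.034). Csrp3 (0.09), Ankrd2 (0.08) and Flnc (-0.05) did not exceed spot noise, and the values of Csrp3, Ankrd2 and Fhl1 turned negative under quantile normalization (-0.11, -0.15 and -0.04). Over the alternatives Mustn1 lay between 1.30 and 1.51 and Ankrd1 between 1.14 and 1.32.

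**Figure D3:**
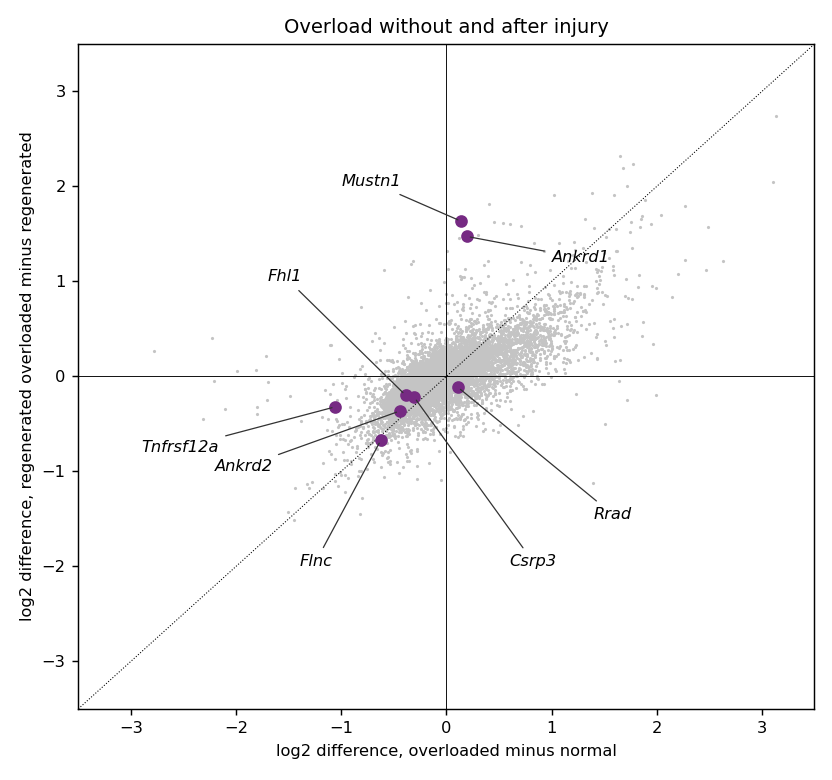
Overload difference in uninjured muscle (horizontal axis, log2) against that in regenerated muscle (vertical axis, log2). Grey points are 9129 named genes above background on all 4 arrays, and purple points are the 8 matched genes of the set. The dotted line marks equal differences, and the 2 axes share no array. Mustn1 (0.14, 1.63) and Ankrd1 (0.19, 1.47) lie far above the line, and Flnc (-0.62, -0.67) lies on it.

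Ordered by level, 5 of the 8 genes were highest in normal muscle. Ankrd2 signal was 82371, 74434, 60620.3 and 57828 in normal, regenerated, overloaded and then regenerated overloaded muscle. Csrp3 signal was 59658, 55108, 48242 and 47319. For both, the 2 overloaded arrays did not differ beyond spot noise. Flnc signal was 7866, 7463, 5108 and 4691 in the same order, with normal and regenerated muscle not separated beyond spot noise and both overloaded arrays clearly under them. Fhl1 signal was 203622, 166228, 155510 and 144978 on a probe with up to 10 spots, and the 2 overloaded arrays differed by more than spot noise. The single spot of a second Fhl1 probe gave 30452, 25045, 22043 and 21432.5, the same order. Rrad varied least, with 2581 in normal, 2605 in regenerated, 2779 in overloaded and 2409 in regenerated overloaded muscle, a range of 1.15-fold.

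No close relative of these genes differed 2-fold under overload. Of 12 paralogs, 10 were measured in each overload comparison and none differed 2-fold in either. Fhl3, a LIM protein like Fhl1, was the furthest, at -0.98 in overloaded against normal and -0.88 in regenerated overloaded against regenerated muscle. Fhl2 was at -0.46 and -0.63. Ankrd23, the third muscle ankyrin repeat gene beside Ankrd1 and Ankrd2, was at -0.57 in overloaded against normal muscle. Xirp2, the paralog of Xirp1, was at -0.30 without injury and 0.45 after it, on 1 spot. The medians of the list were 0.01 and 0.03, beside -0.05 and -0.03 for all genes.

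Other proteins of the Z-disc and titin had 12 of 16 genes measured. In overloaded against normal muscle 1 was 2-fold or more higher, Actn3 (1.99), the alpha-actinin of fast fibres, none was lower, and the median was -0.51. Trim63 (-0.96), a ubiquitin ligase bound to titin, Myoz1 (-0.89) and Nrap (-0.69) had the next largest differences. In regenerated overloaded against regenerated muscle none of the 12 was past 2-fold and the median was -0.35, with Myoz1 at -0.74, Trim63 at -0.67, Actn2 at -0.54 and Ldb3 at -0.47. Partners of filamin in chaperone-assisted autophagy had 8 of 9 genes measured, none past 2-fold in any comparison. Bag3, the co-chaperone that takes up damaged filamin, was at -0.50 and -0.61 in the 2 overload comparisons, beside -0.62 and -0.67 for Flnc. Costamere linkers had 11 of 13 genes measured and none past 2-fold, with medians of -0.16 and -0.03, and the largest differences were those of Zyx (-0.38) without injury and Lims2 (-0.51) after it.

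Ankrd1 is widely read as a target of YAP and TEAD, transcription regulators that respond to stiffness. Of 21 other such targets, 13 were measured in regenerated overloaded against regenerated muscle, none was past 2-fold and the median was -0.12. Ccdc80 was furthest, at 0.51, followed by Crim1 at -0.44, where Ankrd1 was at 1.47. Ccn1 was at -0.28 and Ccn2 at -0.25, on 1 and 10 spots. In regenerated against normal muscle 2 of 13 were 2-fold or more higher, Ccdc80 (1.49) and Axl (1.15, technical SE 0.33). The median was 0.29. Axl was above background in regenerated but not in normal muscle, and its 2.21-fold is set against its own dim signal there (39.7). In overloaded against normal muscle 1 of 12 was higher, Ccdc80 (1.59), with a median of 0.32. Actin genes and genes of serum response factor had 8 of 12 genes measured, none past 2-fold in any comparison, and Acta1, skeletal actin, was at -0.38 and -0.21 in the 2 overload comparisons.

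No measured partner of Tnfrsf12a was 2-fold lower under overload. Of 14 genes of TWEAK and NF-kB signalling, 11 were measured, and 2 were 2-fold or more higher in overloaded against normal muscle. They were Traf1 (1.17, technical SE 0.55, 1 spot) and Birc3 (1.02, technical SE 0.16), where Tnfrsf12a was at -1.06. Both were dim in normal muscle, with signals of 34.1 and 94.2. Traf1 also read 1.01 in regenerated against normal muscle, which did not exceed spot noise (technical SE 0.53). In regenerated overloaded against regenerated muscle none of the 11 was past 2-fold, and Nfkbia, the inhibitor of NF-kB, was furthest at -0.63. Of 9 genes of the L-type calcium channel and the triad, which Rrad touches, 8 were measured and none was past 2-fold in any comparison. Their median was -0.39 in overloaded against normal and -0.27 in regenerated overloaded against regenerated muscle, with Jph2, a junction protein of the triad, at -0.86 and -0.56.

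Genes with the pattern most like that of a member were sought over the 4 arrays among 9121 named genes above background on all of them, by the distance between log2 signals centred on each gene's mean. This is a description over 4 values. Nearest to Ankrd1 were Kcnab1, a subunit of potassium channels (distance 0.26), Akip1 (0.26) and Lypd5 (0.30). Nearest to Mustn1 were Gas2 (0.23), Tnmd, the tendon protein tenomodulin (0.33), and Tph1 (0.38). Nearest to Tnfrsf12a were Zfp365 (0.10), Hyal1, a hyaluronidase (0.11), and Tuba4a, an alpha-tubulin (0.11). The signal of Tuba4a was 71309 in normal, 45493 in regenerated, 32709 in overloaded and 33291 in regenerated overloaded muscle.

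**Figure D4:**
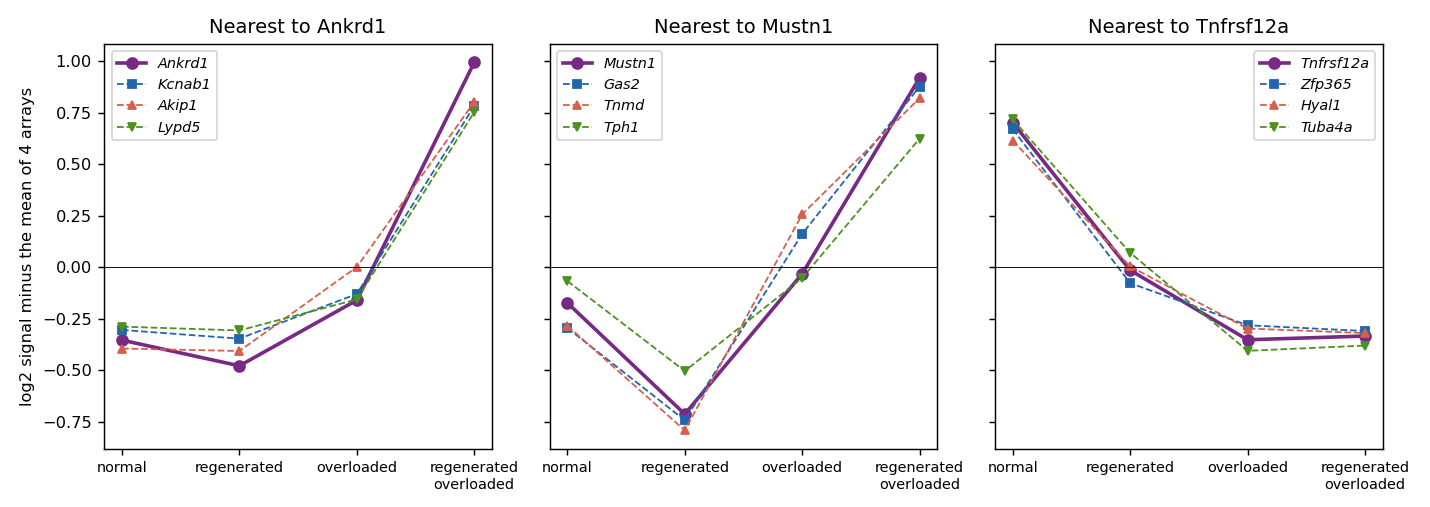
Log2 signal minus the mean of the 4 arrays (vertical axis) by group (horizontal axis) for Ankrd1, Mustn1 and Tnfrsf12a (solid purple) and the 3 genes nearest to each (dashed). The genes near Ankrd1 are highest in regenerated overloaded muscle, those near Mustn1 are also lowest in regenerated muscle, and those near Tnfrsf12a are highest in normal muscle.

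Tendon markers were compared with Mustn1 and Ankrd1. Of 6 measured tendon markers, all above background on every array, 4 were 2-fold or more higher in regenerated overloaded against regenerated muscle, Tnmd (1.61), Kera (1.46), Comp (1.21) and Fmod (1.18), with a list median of 1.20. In overloaded against normal muscle 1 of the 6 was, Thbs4 (1.18), and the median was -0.06. In regenerated overloaded against overloaded muscle 2 of the 6 were, Comp (1.70) and Fmod (1.32), and Kera was at -0.24. Kera signal was 219 in normal, 73.3 in regenerated, 238 in overloaded and 202 in regenerated overloaded muscle, and its lowest array was the regenerated one. The difference of differences of the list had a median of 1.21, beside 1.49 for Mustn1 and 1.28 for Ankrd1. Tendon markers summed to 34919 in normal, 45687 in regenerated, 53147 in overloaded and 83804 in regenerated overloaded muscle. Thbs4 was the largest single part of that sum on every array (16709, 30507, 37833 and 57066). Its difference of differences was -0.28, opposite in sign to the list median. Fibroblast markers, 6 measured and 5 of them above background in normal muscle, summed to 44716, 91030, 123543 and 155769 in that order. Their median was 1.29 for overload without injury and 0.95 after it, where 4 and 3 of the 6 were 2-fold or more higher. In regenerated overloaded against overloaded muscle their median was 0.39, with none past 2-fold. Their difference of differences had a median of -0.60 over 5 genes, opposite in sign to Mustn1, Ankrd1 and the tendon list. Lum alone of the 5 was above 0, at 0.16. The part of these tissues in the Mustn1 and Ankrd1 signals was not tested.

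Fast fibre markers had the median furthest from 0 among the 11 marker lists in overloaded against normal muscle. All 7 measured were above background on every array, and their summed signal was 258378 in normal, 167215 in regenerated, 142922 in overloaded and 138572 in regenerated overloaded muscle. In overloaded against normal muscle 4 of the 7 were 2-fold or more lower, Myh2 (-2.78), Tnni2 (-2.31), Myh1 (-1.72) and Tnnt3 (-1.49), and Myh4 was higher (1.39). In regenerated overloaded against regenerated muscle Myh4 alone was past 2-fold, in the lower direction (-1.12), and the list median was -0.21, against -1.49 without injury. The difference of differences had a list median of 1.28, the value of Tnnt3, beside 1.28 for Ankrd1 and 0.74 for Tnfrsf12a. The arrays behind these values differed. Tnnt3 was highest in normal muscle (11157) and lowest in overloaded muscle (3981), whereas Ankrd1 was highest in regenerated overloaded muscle. The list was split, with 4 of the 7 genes 2-fold or more above 0 and 1 below, from 3.04 for Myh2 to -2.52 for Myh4. Slow fibre markers had none of 8 past 2-fold in any comparison. The part of fibre type in the members' signals was not tested.

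Immature fibres were followed through 5 measured genes. Myh3, the embryonic myosin heavy chain, was 2-fold or more higher in both overload comparisons (1.62 without injury and 1.32 after it), and its difference of differences was -0.31, while Myod1, Myog, Myf5 and Myh8 were not past 2-fold in either. Macrophage markers were above background on all arrays, 7 of 7. Their median was 0.76 in overloaded against normal and 0.22 in regenerated overloaded against regenerated muscle. In the first, 3 of the 7 were 2-fold or more higher, Adgre1 (1.21), Aif1 (1.03) and Cd68 (1.02), and in the second none was. Cd68 was also 2-fold or more higher in regenerated against normal muscle (1.05). Endothelial and smooth muscle markers, 6 and 6, had none past 2-fold in any comparison. Adipocyte and Schwann cell markers, with 3 and 5 measured, had none past 2-fold either. The part of these cells in the members' signals was not tested.

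The scaling moved the small differences of several genes. In overloaded against normal muscle the 5 scalings put Ankrd2 between -0.46 and -0.12, Csrp3 between -0.32 and 0.0008, Fhl1 between -0.40 and -0.03, Flnc between -0.64 and -0.43 and Mustn1 between 0.13 and 0.39. In regenerated overloaded against regenerated muscle they put Ankrd2 between -0.37 and -0.26, Csrp3 between -0.23 and -0.12, Fhl1 between -0.20 and -0.08 and Flnc between -0.68 and -0.61, all under 0.

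**Figure D5:**
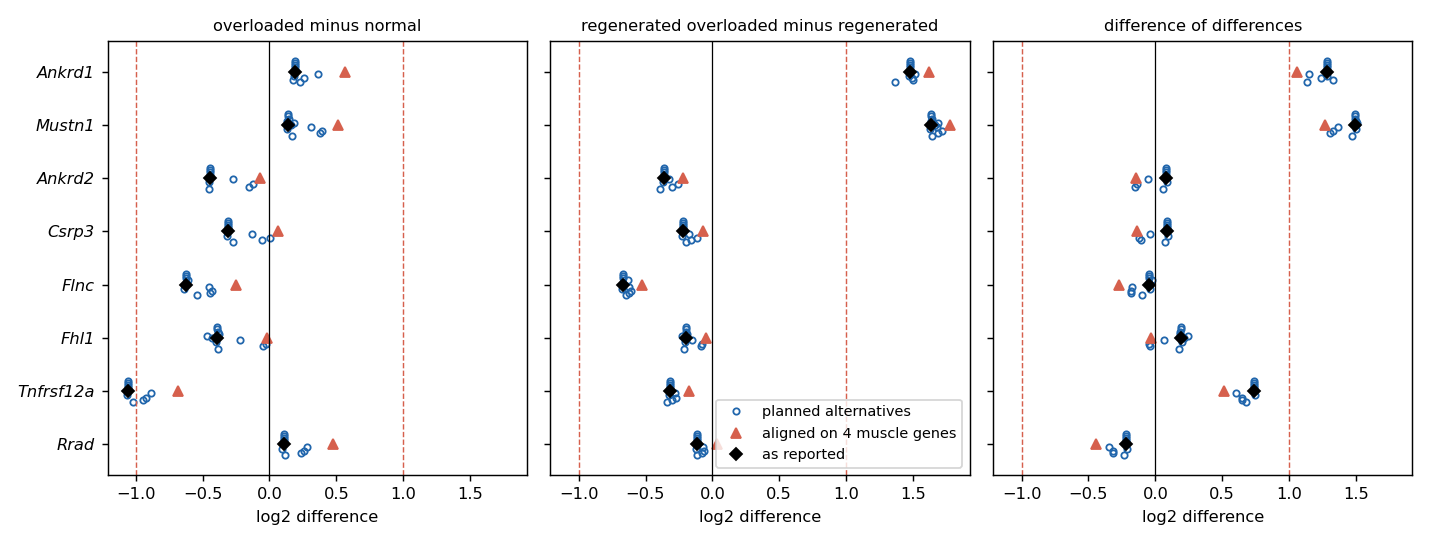
Log2 differences (horizontal axis) of the 8 genes as reported (black diamonds), under the planned processing alternatives (open blue circles) and with the arrays aligned on Ckm, Acta1, Mb and Des (red triangles), with dashed lines at 2-fold. Mustn1 and Ankrd1 remain past 2-fold in the middle and right panels under every setting drawn, and Tnfrsf12a crosses the 2-fold line in the left panel.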

How the data were processed

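RNA pooled from 6 muscles per group was measured on 4 one-colour Agilent arrays. Per the file headers the authors' scanner software was Feature Extraction 11.5.1.1 (the submitters' processing notes name 10.10.1.1), which gave each spot a background-subtracted, spatially detrended intensity, raw median intensities, and other columns of flags. The deposited series table holds the same intensity multiplied by a factor constant within an array (2.14, 2.10, 1.95 and 2.02, in the order normal, regenerated, overloaded, both; medians 182, 212, 222 and 226), on a linear, uncentred scale. What the constants were chosen from is not given in the sources used here. No spot was saturated, and 406 to 451 spots per array with an outlier flag were left out, 1 of them a spot of Fhl1. The number of arrays limits the precision.

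Log2 signals were scaled to the 75th percentile, averaged over spots, and read from each gene's brightest probe. A gene was measured where its probe was above background on at least 1 array compared. Where only 1 was, its fold is a bound, set against the dimmest signal of the other array that passed as above background, or the probe's own where higher. Technical SEs pooled the spot SD over 20 signal bins. With 1 array a group no test was run. Symbols came from accessions (18643 probes), through the reference table of GRCr8, while the headers place probes on rn4, so only promoter coordinates are given. Members and lists were chosen with earlier results of these data known. The text names all members, up to 4 genes of a list with the largest differences, and the 3 genes nearest in pattern. Besides these it names Ccn2, Myh4, Myf5, Kera, Thbs4, Tnnt3, Tpm3, Tnnt1 and Lum in some comparisons, singled out after their values were seen. Alternatives were other background correction (normexp, offset 50), scalings, probes, spots, filters and a 1.5-fold limit. The code was tested on simulated data. R 4.3.3, limma 3.58.1 and Python 3.11.15 were used.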

Additional observations from a re-analysis of the deposited data

Results flagged for a closer look

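In 4 of the genes the same contrast had opposite signs in 2 groups, each group being 1 array, and the differences were not tested. Mustn1 was lower in regenerated than in normal muscle (-0.54, technical SE 0.025) and higher in regenerated overloaded than in overloaded muscle (0.95, technical SE 0.023), both beyond spot noise. Ankrd1 gave -0.12 and 1.16 in these comparisons, the first within spot noise. Tnfrsf12a gave -0.72 and 0.018, the second within spot noise. Rrad gave 0.014 and -0.21 for injury, and 0.11 and -0.11 for overload without and after injury, where 0.014 and 0.11 were within spot noise.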

How the results depend on the processing

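Counts of the 8 genes past 2-fold came out within 1.5 times of the reported count in 57 of 65 recomputations, counting the added alternative. With a 1.5-fold limit 1 gene (Tnfrsf12a) was past it in regenerated against normal muscle, 2 in overloaded against normal muscle and 2 in regenerated overloaded against overloaded muscle. In overloaded against normal muscle the count was 0 with quantile normalization, 0 with cyclic loess, 0 with the deposited series table and 0 with the arrays aligned on 4 skeletal muscle genes, which lost Tnfrsf12a. That alignment raised the count in regenerated overloaded against overloaded muscle to 2, through Mustn1 (1.06). Of 435 single values under the alternatives, 18 had another sign than the reported one, all of them of differences under 2-fold.

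The counts over all genes moved more. Regenerated against normal muscle gave 327 genes and transcripts past 2-fold, or 96 with normexp, 2209 without the filter on dim probes and 199 with genes above background on both arrays. The same 3 alternatives turned 554 into 183, 5698 and 376 for overloaded against normal, 343 into 103, 1460 and 227 for overload after injury, and 300 into 70, 1438 and 144 for injury under overload. Across all 4 arrays the count was 110, or 41 with normexp and 5587 without the filter. With each gene read from its dimmest probe above background the first 4 counts were 193, 366, 144 and 74, and with the limit at 1.5-fold the 5 counts were 1370, 1930, 1223, 941 and 669. Alignment on muscle genes gave 770 and 1308 for the comparisons against normal muscle and 188 across all 4 arrays. The cause was not tested. The scalings moved the median of all genes by at most 0.13, in the difference of differences with the deposited series table, and the alignment on muscle genes by up to 0.29. Reading genes by a name in the files could not be run, since they name probes by accession. No paired analysis was possible because each group has 1 array.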
